A study of Homo sapiens with 8 samples.

Results

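The 4 control libraries of a human lung cancer cell line study were compared here, 2 labelled A549 and 2 labelled H1299, out of 8 libraries in all. A549 is an established line from a lung adenocarcinoma, and H1299 (NCI-H1299) an established line from a lymph node metastasis of a lung carcinoma. Both sets are labelled as wild type and were transfected with a control microRNA (miR-ctrl), so every library in the comparison comes from transfected cells and cells without transfection were not analysed here. The other 4 libraries, 2 per line, were transfected with miR-29a-3p and serve only to measure the same line difference again. Gene expression was measured by RNA-seq of total RNA and deposited as FPKM, fragments per 1000 bases of transcript scaled to the size of the library, so levels can be set side by side between genes.

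The labels number the libraries 1 and 2 within each group and do not say whether they are separate cultures, so p-values measure only the spread between 2 libraries. Each cell line is 1 line, and whether the lines were grown, extracted or sequenced together is not given, so line and batch cannot be told apart. The deposited table holds the lines in separate blocks, which were joined by gene ID: 31461 genes in all, 24904 of them listed for both lines, with a gene listed for 1 line only taken as 0 in the other. In genes with 1 transcript the FPKM values were whole multiples of what 1 fragment is worth for 90.8% to 96.5% of values in the 4 controls, within a tolerance of 0.02 of a fragment, which gives 12221310 to 15614821 fragments per library and makes 1 fragment per 1000 bases worth 0.064 to 0.0818 FPKM. In a transcript of about 1000 bases, values of that size thus rest on about 1 fragment, and in longer ones on more. The 2 replicates of a line differed by a median of 0.0837 (A549-labelled) and 0.0788 (H1299-labelled) on the log2(FPKM + 1) scale, and were not identical in any pair.

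As background, cancer cell lines keep parts of the expression program of the cell they came from and carry fixed genomic changes that can be read in RNA. A549 cells are known to have lost the 9p21 locus with the cell cycle inhibitors CDKN2A and CDKN2B, and to have lost the function of KEAP1, the adaptor that marks the transcription factor NRF2 for degradation. NRF2 then stays high and drives aldo-keto reductases, NADPH-producing enzymes and glutathione enzymes, for which A549 is a standard example, together with ALDH1A1, a retinaldehyde dehydrogenase. H1299 is known as a line with mesenchymal and neuroendocrine-like features.

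These line markers went against the labels. Values are given below for A549-labelled controls 1 and 2 and then, after "against", for H1299-labelled controls 1 and 2. CDKN2A measured 23.8 and 24.8 FPKM against 0.0513 and 0.112 FPKM, a log2 difference of 4.55 ± 0.067 (SE, n = 2 and 2, limma adjusted p = 2.2e-05). CDKN2B measured 6.07 and 5.10 against 0.0658 and 0.0280 FPKM. Both genes were thus present in the libraries named for the line that is known to lack them and close to the worth of 1 fragment per 1000 bases in the others. ALDH1A1 measured 57.7 and 60.8 against 809.1 and 784.6 FPKM, and AKR1C2, an aldo-keto reductase of steroid metabolism, 10.4 and 9.83 against 113 and 111 FPKM. Of the 9 A549 markers on the list, 8 were lower in the A549-labelled controls and 7 of them at least 2-fold. GPX2, a glutathione peroxidase, did not pass the test, at 1.16 and 2.38 against 1.01 and 2.15 FPKM. The miR-29a-3p libraries carried the same order, with CDKN2A at 27.8 and 28.4 in the A549-labelled and 0.081 and 0.0660 FPKM in the H1299-labelled libraries. All directions below are therefore directions between labels, written as "the A549-labelled controls" and "the H1299-labelled controls", and say nothing about which line the cells were.

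The genes around CDKN2A on 9p21 were low in the H1299-labelled controls over a limited stretch. Within 2 Mb of CDKN2A on either side the table lists 32 genes and other transcripts (GRCh38, gene positions from GENCODE 29). In the stretch from MTAP to the last entry before DMRTA1 (chr9:21802543-22214672), which holds CDKN2A, its antisense neighbour CDKN2B-AS1 and CDKN2B, 9 of 10 entries were above 0 in an A549-labelled control, and 5 of those 9 were at 0 in both H1299-labelled controls. The highest H1299-labelled value there was 0.464 FPKM, for MTAP, the methylthioadenosine salvage enzyme, which measured 1.72 and 1.11 against 0.464 and 0.385 FPKM. Without H1299-labelled control 2 the limma adjusted p of MTAP was 0.0571. UBA52P6, a pseudogene beside CDKN2B, was also above 0 in them, at 3.08 and 2.66 against 0.168 and 0.214 FPKM. CDKN2B-AS1 measured 0.728 and 0.925 FPKM in the A549-labelled controls and was listed at 0 in both others. Of the 5 entries at 0 there, AL359922.3, ERVFRD-3 and AL157937.1 reached at most 0.188 FPKM in the A549-labelled controls. At such levels a 0 in the H1299-labelled controls says little. Of the 13 entries outside the stretch that were above 0 in an A549-labelled control, 0 were at 0 in both H1299-labelled controls. FOCAD, a focal adhesion protein gene on one side, measured 6.64 and 6 against 5.40 and 5.55 FPKM, and DMRTA1 on the other side 1.62 and 1.67 against 0.909 and 0.941 FPKM. KLHL9 and MIR31HG, the host transcript of miR-31, were higher in the H1299-labelled controls, with MIR31HG at 6.73 and 6.60 against 11.6 and 13.5 FPKM. Copy number was not measured, and at 12221310 to 15614821 fragments a level under 1 fragment cannot be told from none.

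**Figure D1:**
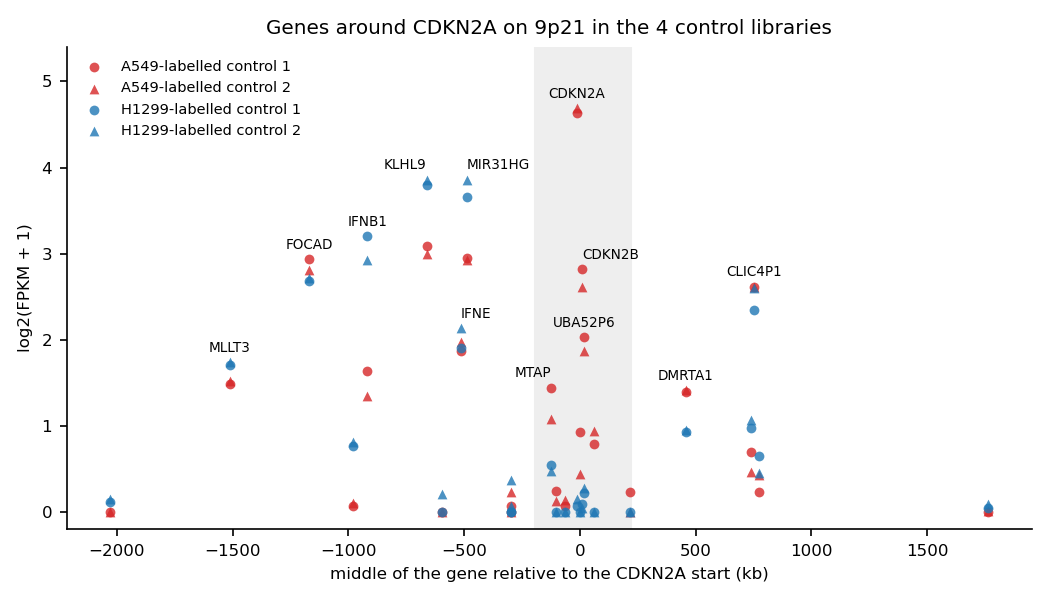
Expression, as log2(FPKM + 1), of the transcripts above 0 within 2 Mb of CDKN2A, placed by the distance of the gene's middle from the CDKN2A start in kb; red marks are the 2 A549-labelled and blue marks the 2 H1299-labelled controls, and grey shades the stretch from MTAP to the last entry before DMRTA1. Inside the shading the highest H1299-labelled value is 0.464 FPKM, while FOCAD, KLHL9, MIR31HG and DMRTA1 on either side have values above 0 in all 4 controls.

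Across the transcriptome the 2 sets of controls differed in most genes. Of 13665 genes at 1 FPKM or more in at least 2 of the 4 controls, 10321 passed an adjusted p of 0.05, which is 75.5%. Of all tested genes 45.8% were higher and 29.7% lower in the A549-labelled controls. With a difference of at least 2-fold required as well, 3992 genes remained (29.2%), 2467 higher (18.1%) and 1525 lower (11.2%). At least 4-fold differences were called for 931 genes, 491 higher and 440 lower, and at least 16-fold differences for 96 genes, 34 higher and 62 lower. For 12046 tested genes (88.2%) the 2 lines' values did not overlap. Because so many genes pass the test, the gene groups below are described by their members at 2-fold. Those counts are to be read against 18.1% higher and 11.2% lower over all tested genes, also where these shares are not repeated. A count near or under its share is no more than tested genes in general gave. A member under 1 FPKM in both libraries of 1 line was tested only through the other line, so the filter fixed its direction.

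The FPKM scale itself leaned to the A549-labelled side. The median log2 difference over all tested genes was 0.18, and 0.04 once the libraries were rescaled by their median ratios, a shift of about that size for every gene. The share of higher genes among the 2-fold calls fell from 61.8% to 52.6% with that rescaling. The H1299-labelled controls spent more of their FPKM on few genes: the 100 highest genes made up 46.4% and 45.4% of the total there against 37.5% and 37.9%, and the mitochondrially encoded genes 17.9% and 18.0% against 12.7% and 13.1%. After it 2003 of the 13665 genes were at least 2-fold higher and 1803 lower. Each gene group below is therefore given with its median, to be read against the all-gene median of 0.18, and with its rescaled counts where they differ in direction or by over 1.5 times. In bulk RNA, fewer cells with a transcript and less transcript per cell cannot be told apart.

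Of 7 tested neuroendocrine and neuronal genes 2 were at least 2-fold higher in the A549-labelled controls and 2 lower (median 0.17), with 1 higher without A549-labelled control 1, and the list summed to 139 and 140.0 against 129 and 114 FPKM. Markers of other cells were low throughout. Of the 8 fibroblast markers 1 reached 1 FPKM, COL1A1 in the H1299-labelled controls at 1.33 and 1.19 FPKM, and the summed level of the list was 0.389 and 0.553 against 2.38 and 2.31 FPKM. The endothelial list summed to 0.208 to 0.432 FPKM over the 4 controls. The leukocyte list summed to 9.3 to 19.8 FPKM, nearly all of it CD68, a lysosomal protein of macrophages and many tumour cells, at 18.4 and 18.5 against 8.14 and 8.09 FPKM, while 4 of its members were at 0 in all 4 controls or unlisted. Among lung epithelial markers ABCA3, the lipid transporter of surfactant-producing cells, measured 13.1 and 12.3 against 9.36 and 9.32 FPKM, and 4 others of the list were at 0 or unlisted. Of the 2 tested members of this list 1 was called higher, ABCA3, and 1 lower, with 0 at 2-fold.

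**Figure D2:**
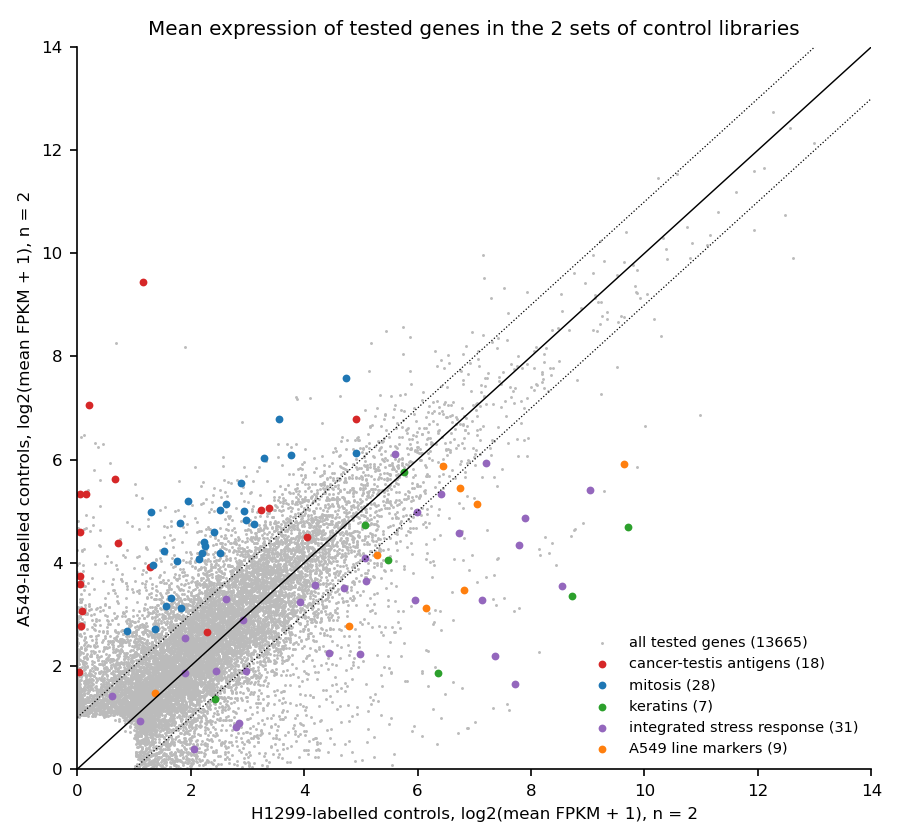
Mean of the 2 A549-labelled controls (vertical) against mean of the 2 H1299-labelled controls (horizontal) for the 13665 tested genes, each as log2(mean FPKM + 1); the solid line is equality, dotted lines mark a difference of 1 on the log2 scale, and colours mark members of 5 gene lists with the number tested. Cancer-testis antigens and mitosis genes lie above the solid line, and keratins, stress response genes and A549 markers mostly below it.

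The largest differences were of genes high in 1 line and low, though mostly still measured, in the other. Highest in the A549-labelled controls by this measure were the X-linked germline antigens GAGE2A, GAGE12F and MAGEA4. GAGE2A measured 675.5 and 706.6 against 1.09 and 1.40 FPKM, and MAGEA4 134 and 130 against 0.205 and 0.105 FPKM. The GAGE genes, like RHOXF2 and CTAG1A, exist as near-identical copies, so their reads could be split between copies and single-copy values are uncertain. BEX1, a neuronal adaptor gene on the X chromosome, measured 85.9 and 89.3 against 0.0741 and 0.0947 FPKM. G0S2, an inhibitor of the fat lipase ATGL, measured 297 and 281 against 2.66 and 2.84 FPKM, a 105-fold difference in means. TDRD12, a germline piRNA pathway protein, FLNC, a muscle filamin, and PLBD1, a phospholipase-like protein, followed, each between 72.0 and 79.0 FPKM against at most 0.508 FPKM. RHOXF2, CTAG1A (the antigen NY-ESO-1), MAGEA12 and the testis histone H2AB3 completed the 12 largest.

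In the other direction PAPPA, a protease that cleaves IGF-binding proteins, led with 1.26 and 1.15 against 193 and 198 FPKM, a 162-fold difference in means (log2 difference -6.48 ± 0.053 SE, limma adjusted p = 1.9e-05). CYP24A1, which degrades active vitamin D, measured 0.723 and 0.758 against 116 and 120.2 FPKM. GJA1, the gap junction protein connexin 43, measured 0.568 and 0.900 against 119.5 and 113 FPKM. EPAS1, the hypoxia factor HIF-2 alpha, measured 0.635 and 0.620 against 104 and 105 FPKM. That the lines do not overlap was a condition for naming these genes and is not a result. PTGES, a prostaglandin E synthase, was 73.7-fold lower in means, at 4.21 and 3.39 against 285 and 275 FPKM. GDF15, a stress-induced cytokine of the TGF-beta family, measured 2.34 and 1.90 against 211 and 209 FPKM. IL11, IGFBP3, the hexokinase-domain gene HKDC1, the matrix protein gene SMOC1, TCIM and SIK1B were the rest of the 12 lowest, and SIK1B has a near-identical copy in SIK1, so its level is uncertain.

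Cancer-testis antigens are germline proteins, many of them X-linked, that tumours can switch on. Of 18 tested members 16 were at least 2-fold higher in the A549-labelled controls and 0 lower (shares over all tested genes, 18.1% and 11.2%), with a median log2 difference of 3.27 (all genes 0.18). MAGEA1 measured 39.2 and 39.5 against 0.0749 and 0.144 FPKM, and MAGEA3 48.7 and 48.4 against 0.402 and 0.770 FPKM. XAGE1A was high in both lines, at 101 and 119 against 27.9 and 30.3 FPKM. The list summed to 1220 and 1270 against 70.5 and 71.7 FPKM. The other 16 of the 34 listed antigens were too low to be tested or not in the table, so the count describes only those with a level to compare. A mean of 1 FPKM or more was reached by 18 members in the A549-labelled and by 7 in the H1299-labelled controls. Members low in the H1299-labelled controls were tested only through the line where they are high. Their direction was thus largely fixed by the filter.

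A search by level over all genes of the same 4 libraries found some of the same antigens again. Genes at 5 FPKM or more in both libraries of 1 line and under 0.1 FPKM in both of the other numbered 61 on the A549-labelled side, 46 of them protein-coding, and 14 on the H1299-labelled side. On the A549-labelled side 15 of the 61 (24.6%) lie on the X chromosome, beside 4.02% of the 6996 genes that reached 5 FPKM in both libraries of a line. On the H1299-labelled side 1 of 14 does (7.14%). The 15 X-linked genes include antigens such as MAGEA12, GAGE1 and CTAG1B and near-identical pairs such as RHOXF2 and RHOXF2B. Their share is therefore not separate from the antigen result, and copies are counted more than once. Besides antigens, the A549-labelled set holds other genes known from germ cells: TDRD9, a piRNA pathway helicase, at 17.7 and 17.9 against 0.0848 and 0.0217 FPKM, GTSF1, a piRNA pathway cofactor, at 13.4 and 13.4 against 0.0802 and 0.0512 FPKM, and SYCE1, a protein of the synaptonemal complex, at 7.03 and 6.43 against 0 in both (GTSF1 and SYCE1 were picked after their values were seen). NXF2, a germline RNA export factor, measured 24.6 in both against 0.0238 and 0 FPKM, and has a near-identical copy, NXF2B, so its level is uncertain. On the H1299-labelled side SMOC1, a matrix protein of basement membranes, was the highest, at 0.0842 and 0.0280 against 46.5 and 45.6 FPKM. PTPRD, a receptor phosphatase, measured 0.0482 and 0.0524 against 8.51 and 8.62 FPKM, NEDD9, a focal adhesion scaffold, 0.0902 and 0.0858 against 7.95 and 7.42 FPKM, and DRD1, a dopamine receptor, 0.0773 and 0.0385 against 7.13 and 7.13 FPKM.

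HOX genes, which keep a cell's position along the body axis, also differed. Of 21 tested, 12 were at least 2-fold higher in the A549-labelled controls and 0 at least 2-fold lower, with a median of 1.05 (10 and 1 after rescaling). The HOXB cluster carried most of the level: HOXB2 measured 40.4 and 42.2 against 0.123 and 0.158 FPKM and HOXB4 21.9 and 16.04 against 0.256 and 0.392 FPKM, and all 9 tested HOXB genes were called higher. HOXC8 measured 15.3 and 15.96 against 1.59 and 1.65 FPKM. HOXC13 went the other way, at 2.26 and 1.74 against 4.07 and 4.93 FPKM (log2 difference -0.88 ± 0.13 SE, limma adjusted p = 0.0038). It is the 1 tested HOX gene called lower. A mean of 1 FPKM or more was reached by 21 HOX genes in the A549-labelled and by 12 in the H1299-labelled controls, so the filter favoured higher calls.

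Keratins and cell junction genes were lower in the A549-labelled controls. Keratins form the intermediate filaments of epithelia, and of 7 tested members 5 were at least 2-fold lower and 0 higher (median -1.43). KRT7, the simple epithelial keratin used to recognise lung carcinomas, measured 9.20 and 9.26 against 426 and 419 FPKM, a 45.8-fold difference in means. KRT81, a hair-type keratin, measured 23.7 and 26.1 against 841 and 838 FPKM. KRT18 did not pass the test, at 54.8 and 51.8 against 58.3 and 47.5 FPKM, with overlapping values. All 7 tested keratins reached 1 FPKM in both lines. Of 11 tested junction genes 5 were at least 2-fold lower and 2 higher (median -0.98), and 6 and 1 after rescaling, with 1 higher also without any of A549-labelled controls 1 and 2 and H1299-labelled control 1: CLDN1, a tight junction claudin, measured 11.0 and 11.7 against 132 and 132 FPKM, and CDH1, E-cadherin, 0.146 and 0.135 against 1.91 and 1.88 FPKM.

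The mesenchymal list was mixed, with 4 of 16 tested members at least 2-fold higher and 5 lower (median -0.24), and 3 lower without A549-labelled control 1. VIM, vimentin, measured 288 and 301 against 92.2 and 136 FPKM, and NT5E, the ectonucleotidase CD73, 144 and 145 against 15.8 and 16.6 FPKM. FN1, fibronectin, measured 5.81 and 5.53 against 50.5 and 51.3 FPKM. CDH2, N-cadherin, was present in both, at 9.81 and 10.4 against 14.5 and 15.6 FPKM, a 1.49-fold difference in means.

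Lineage transcription factors, epithelial ones among them, divided the lines. Of 24 tested, 5 were at least 2-fold higher and 9 lower (median -0.14). FOXA2, a factor of lung and liver epithelium, measured 0.645 and 0.497 against 11.2 and 12.2 FPKM, and TFAP2C, an epithelial and placental factor, 0.655 and 0.606 against 9.43 and 9.51 FPKM. KLF5 and ELF3, epithelial factors, were also lower, at 1.83 and 1.96 against 10.7 and 10.3 FPKM for KLF5. Higher in the A549-labelled controls were GATA6, at 7.94 and 7.70 against 2.06 and 2.33 FPKM, NR2F2, and SOX9, at 19.7 and 19.9 against 8.06 and 7.97 FPKM. The transcript of RUNX1 measured 3.15 and 3.17 against 3.17 and 3.18 FPKM and did not pass the test (difference -0.01, 95% interval -0.17 to 0.16).

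A list of secreted proteins and other genes typical of liver followed the same side as FOXA2, with 7 of 11 tested members at least 2-fold lower and 2 higher (median -1.84). Here 5 members reached a mean of 1 FPKM in the A549-labelled and 10 in the H1299-labelled controls, so the filter favoured lower calls. C3, the central complement component, measured 1.11 and 0.879 against 85.4 and 83.3 FPKM, and CPS1, the first enzyme of the urea cycle, 0.105 and 0.0916 against 11.9 and 12.2 FPKM. APOE, a lipoprotein component, was higher instead, at 25.2 and 25.1 against 2.17 and 2.14 FPKM, as was SERPINA1, alpha-1 antitrypsin, at 7.70 and 7.16 against 0.0596 and 0.0762 FPKM. Of 9 tested imprinted genes 2 were at least 2-fold higher and 5 lower (median -1.04), with GRB10, an adaptor that dampens insulin and IGF signalling, at 0.289 and 0.305 against 18.4 and 18.1 FPKM and PHLDA2, a placental growth inhibitor, at 51.3 and 52.2 against 11.5 and 13.2 FPKM.

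DNA replication and mitosis genes stood higher in the A549-labelled controls as groups. During the cell cycle, E2F factors switch on the replication machinery before S phase, and a later program built around FOXM1 serves mitosis. Of 31 tested replication genes 29 were at least 2-fold higher and 0 lower, with a median of 1.93 (27 after rescaling). All 31 reached a mean of 1 FPKM in the A549-labelled and 24 in the H1299-labelled controls, so the filter favoured higher calls. Of 28 tested mitosis genes 27 were at least 2-fold higher and 0 lower, with a median of 2.17 (27 after rescaling). MCM6, a subunit of the replicative helicase, measured 47.0 and 47.3 against 2.55 and 2.35 FPKM, a 19.3-fold difference in means (log2 difference 3.80 ± 0.056 SE, limma adjusted p = 2.1e-05). GINS2, which joins that helicase, measured 14.6 and 15.7 against 0.602 and 0.409 FPKM, and RRM2, the ribonucleotide reductase subunit, 16.1 and 17.3 against 0.671 and 0.806 FPKM. PCNA, the sliding clamp, was the 1 replication gene that did not pass, at 89.6 and 97.6 against 76.2 and 86.5 FPKM, with no overlap but a narrower gap between the lines than between the replicates of either. KIF20A, a kinesin of cell division, measured 30.9 and 30.8 against 1.42 and 1.53 FPKM, CCNA2, cyclin A, 35.4 and 35.6 against 3.01 and 2.75 FPKM, and FOXM1 27.0 and 25.6 against 2.56 and 2.49 FPKM. MKI67, the Ki-67 antigen, was the 1 mitosis gene that did not pass, at 25.9 and 8.46 against 4.50 and 4.96 FPKM. Without A549-labelled control 1 or 2 its log2 difference was 0.72 or 2.23 and passed. PCNA passed without H1299-labelled control 2, at 0.29. Growth rate and density at harvest are not given, so their part in the result was not tested.

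Promoters of MCM6 and GINS2 are printed because they are single examples of the sites through which this group is known to be switched on. They run over the 250 bases before the gene start in RefSeq (GRCh38.p14), read along the gene's strand, MCM6 from chr2:135876444-135876693 and GINS2 from chr16:85688955-85689204, both on the minus strand. Capitals mark matches to E2F sites, TTTGGCGC in MCM6 and TTTCCCGC in GINS2, on either strand.
MCM6: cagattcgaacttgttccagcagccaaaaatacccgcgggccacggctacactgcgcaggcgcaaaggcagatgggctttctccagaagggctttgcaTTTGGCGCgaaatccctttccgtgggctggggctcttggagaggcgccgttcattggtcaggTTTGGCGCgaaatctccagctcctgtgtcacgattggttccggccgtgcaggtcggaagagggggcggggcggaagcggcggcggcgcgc
GINS2: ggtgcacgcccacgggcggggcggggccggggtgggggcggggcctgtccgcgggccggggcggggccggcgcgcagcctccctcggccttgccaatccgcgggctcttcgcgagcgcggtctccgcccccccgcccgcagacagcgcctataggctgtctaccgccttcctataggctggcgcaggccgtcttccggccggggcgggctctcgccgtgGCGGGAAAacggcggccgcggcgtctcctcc
MCM6 has 2 matches, beginning 152 and 90 bases before the start, and GINS2 1 match at 31 bases. Of the 26 replication genes with a RefSeq promoter 4 (15.4%) held TTTGGCGC in these 250 bases and 8 (30.8%) TTTCCCGC, beside 0.681% and 1.7% of all 27305 genes with a promoter. Among mitosis genes 12 of 22 (54.5%) held TTTGAA, the cell cycle homology region, beside 16.1% of all genes. In the sterol and fatty acid synthesis list 1 of 24 (4.17%) held the sterol element TCACNCCAC, beside 1.09%. The E2F, cell cycle and sterol motifs were added later than the other motifs used. A match is a description of letters and not a measured site.

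Cyclins and kinases of the G1 phase were in part higher in the A549-labelled controls. Of 9 tested G1 genes 5 were at least 2-fold higher (3 after rescaling) and 0 lower (median 1.01): CDC25A, a phosphatase that activates CDK2, measured 9.82 and 7.24 against 0.738 and 0.495 FPKM, and CCND1, cyclin D1, 47.1 and 47.2 against 22.9 and 22.2 FPKM (2.09-fold in means). CDK4 did not pass, at 28.4 and 28.3 against 30.5 and 29.9 FPKM. Among 28 genes of DNA damage and cell cycle arrest 4 were at least 2-fold higher and 10 lower (median -0.63). CDKN1A, the inhibitor p21, measured 27.8 and 28.5 against 92.0 and 93.2 FPKM, and PHLDA3, an inhibitor of AKT, 1.15 and 0.850 against 48.5 and 42.1 FPKM. CDKN2C, another inhibitor of CDK4 and CDK6, was higher, at 18.9 and 18.4 against 1.33 and 1.31 FPKM. Of 30 chromatin regulators 7 were at least 2-fold higher and 0 lower (median 0.55), the higher share lying near the 18.1% of all tested genes. In front were UHRF1 and DNMT1, which copy DNA methylation after replication: DNMT1 measured 17.7 and 17.4 against 2.98 and 2.94 FPKM.

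**Figure D3:**
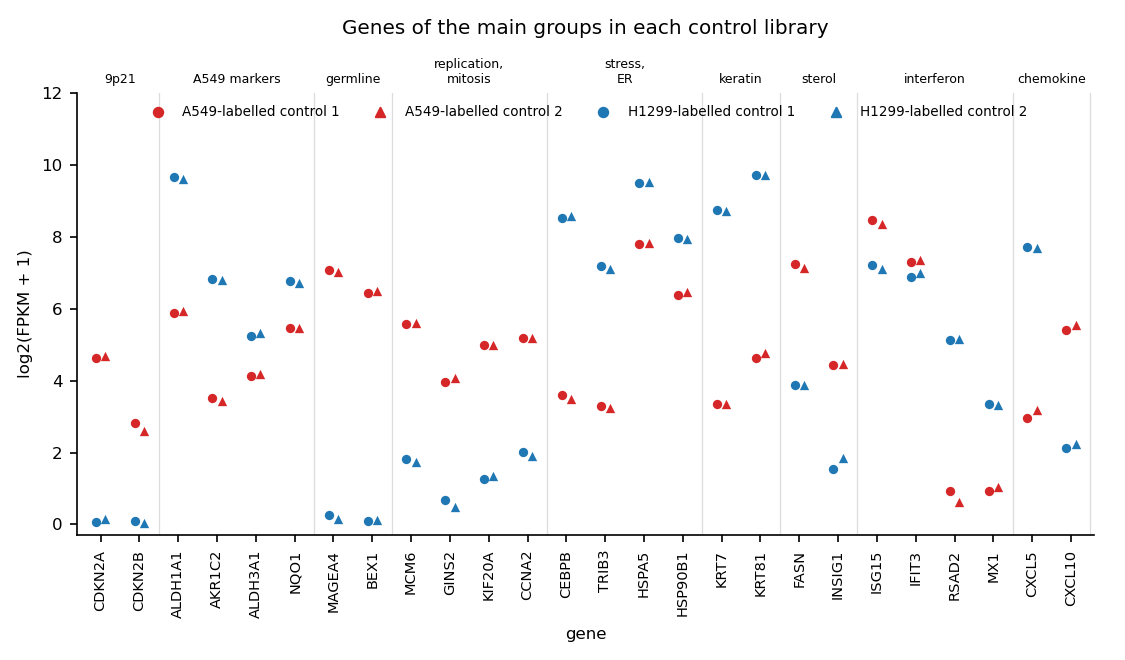
Expression, as log2(FPKM + 1), of 26 genes from the groups described, 1 mark per control library; red marks are the A549-labelled and blue marks the H1299-labelled controls. CDKN2A, MCM6 and FASN are higher in red and KRT7, CEBPB and HSPA5 higher in blue. The genes were picked as examples of a difference, and 88.2% of all tested genes have no overlap between the lines.

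Stress response genes lay on the other side. In the integrated stress response, kinases that sense amino acid shortage, viral RNA or misfolded proteins slow translation and raise the factor ATF4, which with CHOP (DDIT3) and CEBPB drives amino acid transport and synthesis genes. Of 31 tested members 20 were at least 2-fold lower in the A549-labelled controls and 0 higher (median -1.27). CEBPB measured 11.1 and 10.3 against 367 and 379 FPKM, a 34.9-fold difference in means. TRIB3, a pseudokinase target of ATF4, measured 8.88 and 8.48 against 144 and 135 FPKM, STC2, a secreted stress target, 3.60 and 3.59 against 165 and 164 FPKM, and SLC7A5, a leucine transporter, 43.4 and 39.5 against 526 and 523 FPKM. ATF4 itself differed less, at 60.0 and 60.7 against 152 and 143 FPKM (2.44-fold in means), and DDIT3 measured 3.98 and 3.58 against 20.04 and 21.2 FPKM. ASNS, asparagine synthetase, had 8.82 and 7.96 against 13.9 and 14.5 FPKM. Among genes of the list, SHMT2, the mitochondrial serine enzyme, did not pass, at 6.42 and 6.36 against 6.56 and 6.58 FPKM.

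The chaperones of the endoplasmic reticulum were also lower. Of 27 tested members 14 were at least 2-fold lower and 0 higher (median -1.15), and 20 lower after rescaling. ERN1, the sensor IRE1, measured 2.31 and 2.40 against 27.4 and 28.1 FPKM. HSPA5, the chaperone BiP, measured 220.4 and 224 against 726 and 737 FPKM (3.29-fold in means), HSP90B1, the chaperone GRP94, 81.9 and 87.0 against 248 and 245 FPKM, and PDIA4, a disulfide isomerase, 64.8 and 66.8 against 241 and 242 FPKM. In all of these the 2 lines lay apart by far more than their replicates. SEC61A1, the translocon channel, did not pass, since its 2 libraries within each line were as far apart as 55.9 and 27.3 against 26.2 and 50.8 FPKM.

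Promoters of HSPA5 (chr9:125241344-125241593, minus strand) and HSP90B1 (chr12:103930160-103930409, plus strand) show the element that these chaperones share, from RefSeq (GRCh38.p14), 250 bases before the gene start. Capitals mark the ER stress response element, searched on both strands as CCAAT, 9 letters of any kind and CCACG.
HSPA5: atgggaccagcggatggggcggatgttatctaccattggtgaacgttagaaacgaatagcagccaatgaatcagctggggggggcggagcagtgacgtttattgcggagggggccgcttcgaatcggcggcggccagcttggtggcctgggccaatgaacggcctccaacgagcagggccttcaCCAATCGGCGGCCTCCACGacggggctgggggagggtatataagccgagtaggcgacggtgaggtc
HSP90B1: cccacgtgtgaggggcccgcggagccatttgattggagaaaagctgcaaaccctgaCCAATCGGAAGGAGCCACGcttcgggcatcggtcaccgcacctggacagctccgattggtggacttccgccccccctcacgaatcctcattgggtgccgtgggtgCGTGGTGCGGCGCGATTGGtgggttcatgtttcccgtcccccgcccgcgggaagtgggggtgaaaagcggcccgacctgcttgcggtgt
HSPA5 has 1 match, beginning 66 bases before the start, and HSP90B1 has 2, at 194 and 89 bases. Of 26 chaperone and unfolded protein response genes with a RefSeq promoter 8 (30.8%) held it, beside 0.0916% of all genes. At least 2-fold lower in the A549-labelled controls were 6 of the 8, beside 11.2% of all tested genes. In the integrated stress response list 6 of 27 (22.2%) held TGATGNAA, a CHOP and ATF4 element, beside 3.89%. At least 2-fold lower were 3 of these 6, again beside 11.2%.

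The heat shock protein list had the opposite direction to the chaperones of the endoplasmic reticulum. Of 15 tested, 7 were at least 2-fold higher in the A549-labelled controls and 1 lower (median 0.88). HSP90AA1, the inducible HSP90, measured 353 and 365 against 41.1 and 44.2 FPKM, and HSP90AB1 627 and 652 against 184 and 184 FPKM. HSPA8, the constitutive HSP70, measured 154 and 139 against 13.4 and 13.6 FPKM, with many pseudogene copies that make its level uncertain. HSPB8, a small heat shock protein, was the 1 lower, at 0.573 and 0.472 against 17.5 and 17.5 FPKM. The test of whether the 2 families differ from each other was not run.

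Sterol and fatty acid synthesis genes were higher in the A549-labelled controls. These genes are switched on together by SREBP factors when membrane cholesterol is low. Of 30 tested, 20 were at least 2-fold higher and 0 lower (median 1.43, 19 after rescaling). FASN, fatty acid synthase, measured 150.1 and 139 against 13.7 and 13.8 FPKM, SCD, a fatty acid desaturase, 993.5 and 994 against 142 and 140.4 FPKM, and INSIG1, the feedback regulator of SREBP, 20.8 and 21 against 1.89 and 2.60 FPKM. PMVK, a mevalonate pathway kinase, did not pass, at 31.0 and 27.4 against 34.0 and 31.6 FPKM.

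NRF2 target genes, known to be high in A549 cells, were lower in the libraries with that label. Of 32 tested members 17 were at least 2-fold lower and 3 higher (median -1.08). FTL and FTH1, the ferritin chains that store iron, measured 976 and 941 against 6479 and 6060.0 FPKM for FTL and 39.5 and 42.8 against 643 and 605 FPKM for FTH1. ABCC3 and ABCC2, drug and conjugate exporters, measured 4.36 and 3.53 against 66.9 and 72.4 FPKM for ABCC3 and 6.27 and 5.76 against 75.8 and 77.5 FPKM for ABCC2. SLC7A11, the cystine importer, measured 3.38 and 3.98 against 30.3 and 31.3 FPKM, and HMOX1, heme oxygenase, 9.02 and 8.41 against 43.3 and 44.4 FPKM. CBR3, a carbonyl reductase, was higher, at 15.8 and 16.2 against 1.10 and 2.38 FPKM. GCLM, a subunit of the enzyme that starts glutathione synthesis, did not differ by a call, at 5.67 and 5.70 against 5.71 and 5.45 FPKM. KEAP1 was 2.22-fold higher in means, at 21.2 and 16.7 against 8.52 and 8.55 FPKM, and NFE2L2, the NRF2 gene, did not pass because each line's 2 libraries differed from 4.65 to 12.99 and from 5.79 to 15.3 FPKM.

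TXNRD1, thioredoxin reductase, an NRF2 target, measured 17.9 and 18.6 against 45.8 and 32.6 FPKM (2.15-fold in means, limma adjusted p = 0.00504). Without A549-labelled control 1 or 2 that p was 0.0595 or 0.0548, which ends the call. Its promoter is printed as an example with the site NRF2 is known to bind, the 250 bases before the gene start in RefSeq (GRCh38.p14, chr12:104215529-104215778, plus strand), with the antioxidant response element core TGACNNNGC in capitals.
TXNRD1: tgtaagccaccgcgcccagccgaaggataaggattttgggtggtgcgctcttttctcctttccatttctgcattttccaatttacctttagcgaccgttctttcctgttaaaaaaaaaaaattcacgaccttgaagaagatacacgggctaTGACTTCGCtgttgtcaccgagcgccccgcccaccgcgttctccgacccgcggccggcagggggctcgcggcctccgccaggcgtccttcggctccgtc
The match begins 99 bases before the start. Of 22 listed NRF2 targets with a RefSeq promoter 8 (36.4%) held this core on either strand, beside 13.2% of all genes. In the A549-labelled controls 3 of the 8 were at least 2-fold lower and 1 higher, beside 11.2% and 18.1% of all tested genes.

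Genes of aldehyde and drug metabolism were also measured. AKR1B1, aldose reductase, measured 23.2 and 20.3 against 309.9 and 298 FPKM, ALDH2, the mitochondrial aldehyde dehydrogenase, 1.04 and 0.992 against 16.6 and 16.02 FPKM, and ALDH1A1 was given above. Of 24 tested aldehyde and retinoid genes 10 were at least 2-fold lower and 4 higher (median -0.22). CRABP2, the retinoic acid carrier, was higher, at 10.5 and 11.4 against 1.39 and 1.20 FPKM. Of 16 xenobiotic genes 8 were at least 2-fold lower and 5 higher (median -0.99): MGST1, a membrane glutathione transferase, measured 2.43 and 2.47 against 21.9 and 22.4 FPKM, and ABCC1, a drug exporter, 8.81 and 8.45 against 46.5 and 48.2 FPKM. CYP1B1 did not pass, at 12.9 and 12.6 against 12.3 and 12 FPKM.

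Interferon-stimulated genes split by member. Transfected RNA is sensed by cytoplasmic receptors, which raise interferons and through STAT and IRF factors a wide antiviral program, and all 4 controls carry a transfection. Of 34 tested members 5 were at least 2-fold higher in the A549-labelled controls and 12 lower (median -0.35), and 3 and 13 after rescaling. Over all tested genes 18.1% were higher and 11.2% lower, so the higher count did not exceed that share. Some of the most abundant were higher or near level: ISG15, a ubiquitin-like antiviral protein, measured 354 and 326 against 148 and 136 FPKM, IFITM3, a block to virus entry, 104 and 104 against 18.7 and 19.2 FPKM, and IFIT3, an RNA-binding antiviral protein, 156 and 162 against 118 and 126 FPKM. IFIT2 did not pass, at 60.6 and 63.1 against 56.7 and 58.5 FPKM. Others were low in the A549-labelled controls: RSAD2, viperin, measured 0.907 and 0.528 against 33.7 and 34.6 FPKM, MX1, an antiviral GTPase, 0.909 and 1.04 against 9.21 and 8.99 FPKM, and CMPK2, the neighbour of RSAD2, 0.0692 and 0.0690 against 4.79 and 4.78 FPKM. IFITM1, next to IFITM3 in its cluster, measured 1.74 and 1.01 against 26.7 and 25.7 FPKM.

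Promoters of ISG15 (chr1:1013247-1013496, plus strand) and RSAD2 (chr2:6877527-6877776, plus strand) are printed because both hold the same interferon response core while the genes differed in opposite directions. They are the 250 bases before the gene start in RefSeq (GRCh38.p14), and capitals mark GAAA, a gap of 2 letters and GAAA, read on either strand.
ISG15: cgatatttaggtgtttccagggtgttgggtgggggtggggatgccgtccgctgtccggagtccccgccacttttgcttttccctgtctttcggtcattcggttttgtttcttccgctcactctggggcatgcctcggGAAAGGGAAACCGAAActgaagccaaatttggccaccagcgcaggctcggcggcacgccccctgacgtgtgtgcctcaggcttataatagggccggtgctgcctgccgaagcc
RSAD2: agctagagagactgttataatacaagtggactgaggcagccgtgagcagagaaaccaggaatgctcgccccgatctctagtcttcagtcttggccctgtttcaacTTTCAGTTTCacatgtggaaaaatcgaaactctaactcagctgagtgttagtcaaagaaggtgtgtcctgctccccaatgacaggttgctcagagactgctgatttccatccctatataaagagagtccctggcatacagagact
ISG15 has 2 overlapping matches, at 113 and 107 bases before the start, and RSAD2 has 1, at 145 bases. Of 28 listed genes with a RefSeq promoter 20 (71.4%) held the core, beside 3.71% of all genes. Among these 20 genes 4 were at least 2-fold higher and 7 lower in the A549-labelled controls, beside 18.1% and 11.2% of all tested genes. Members with the core stood on both sides, but the higher count lay near the share of all tested genes.

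The interferons and their sensors were measured too. IFNL1, a type III interferon, measured 3.29 and 3.64 against 29.4 and 27.2 FPKM, and IFNB1, interferon beta, 2.10 and 1.54 against 8.20 and 6.58 FPKM. STING1, the adaptor of DNA sensing, was near absent from the H1299-labelled controls, at 4.34 and 3.90 against 0.0722 and 0.0231 FPKM. JAK1 was lower, at 24.5 and 24.4 against 58.2 and 61.1 FPKM, and TYK2, its partner kinase at the interferon receptor, higher, at 13.5 and 13.1 against 4.75 and 4.82 FPKM. Of 20 tested genes of this list 2 were at least 2-fold higher and 5 lower (median -0.26), beside 18.1% and 11.2% of all tested genes.

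Antigen presentation genes lay near the background, with 3 of 19 tested members at least 2-fold higher and 0 lower (median 0.24), and 2 and 1 after rescaling, with a median of 0.06. B2M, the light chain of MHC class I, measured 50.4 and 54.2 against 23.2 and 20.8 FPKM, and HLA-B, which shares reads with its paralogs, 50.4 and 49.2 against 21.2 and 20.8 FPKM. Of 18 tested checkpoint ligands and natural killer cell ligands 6 were at least 2-fold higher and 5 lower (median -0.22). The stress ligand MICA measured 62.1 and 62.3 against 9.21 and 8.76 FPKM, and MICB 25.6 and 24.7 against 1.14 and 0.760 FPKM. CD55, which protects cells from complement, was lower, at 2.01 and 2.25 against 32.9 and 33.5 FPKM. CD274, the checkpoint ligand PD-L1, was low in both, at 0.522 and 0.610 against 1.39 and 1.55 FPKM.

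Chemokines and cytokines held the list with the lowest median, -2.03, with 12 of 19 tested members at least 2-fold lower and 3 higher. In the A549-labelled controls 13 members reached a mean of 1 FPKM and in the H1299-labelled 19, so the filter favoured lower calls. CXCL5, CXCL8 and CXCL1 attract neutrophils: CXCL5 measured 6.73 and 8.06 against 209.7 and 206 FPKM, CXCL8 2.08 and 2.02 against 45.2 and 36.0 FPKM, and CXCL1 6.38 and 6.11 against 78.5 and 76.5 FPKM. IL6 measured 0.320 and 0.382 against 10.2 and 9.18 FPKM, and LIF, of the same cytokine family, 9.61 and 10.03 against 98.3 and 95.3 FPKM. CXCL10 and CXCL11, which attract T cells and are interferon-induced, were higher in the A549-labelled controls, CXCL10 at 41.6 and 45.8 against 3.38 and 3.69 FPKM. CCL5 did not pass, at 55.6 and 88.9 against 76.8 and 102 FPKM. CXCL genes are close paralogs, and how shared reads were counted is not given in the sources used here.

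Collagens were lower in the A549-labelled controls. Of 19 tested, 9 were at least 2-fold lower and 4 higher (median -0.86). A mean of 1 FPKM was reached by 10 in the A549-labelled and by 17 in the H1299-labelled controls, so the filter favoured lower calls. COL7A1, the anchoring fibril collagen, measured 2.11 and 1.86 against 109.8 and 109.7 FPKM. COL4A1 and COL4A2, the paired chains of basement membrane collagen, measured 0.479 and 0.408 against 33.8 and 33.5 FPKM and 0.814 and 0.731 against 60.2 and 60.8 FPKM. COL5A2, of a fibril-forming collagen, measured 2.14 and 2.35 against 50.03 and 60.0 FPKM. COL6A1 and COL6A2, the paired chains of collagen VI, were higher together, COL6A1 at 17.8 and 17.2 against 3.37 and 3.74 FPKM.

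Enzymes and proteins of the matrix differed in both directions. Of 20 tested collagen maturation genes 3 were at least 2-fold higher and 5 lower, beside 18.1% and 11.2% of all tested genes. The list's median changed sign with scaling, from 0.04 to -0.12. Among lysyl oxidases, which cross-link collagen, LOXL1 measured 15.3 and 13.9 against 0.0536 and 0.0959 FPKM and LOX 4.70 and 4.39 against 0.815 and 0.671 FPKM. PLOD2, a lysyl hydroxylase, measured 4.18 and 4.91 against 43.6 and 45.3 FPKM. Of 25 tested matrix glycoproteins 7 were at least 2-fold higher and 7 lower (median -0.26): MFAP2, a microfibril protein, measured 12.5 and 10.5 against 0.0795 and 0 FPKM, THBS1, thrombospondin 1, 11.2 and 11.0 against 0.737 and 0.907 FPKM, and TGFBI, an adhesion protein induced by TGF-beta, 17.0 and 14.9 against 168 and 166 FPKM.

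Proteases and their inhibitors also went both ways, with 7 of 23 at least 2-fold higher and 10 lower (median -0.47). MMP1, interstitial collagenase, measured 34.5 and 31.8 against 0.423 and 0.208 FPKM, and MMP14, the membrane-bound collagenase, 38.9 and 38.4 against 0.990 and 1.13 FPKM (36.5-fold in means). PLAU, the plasminogen activator urokinase, did not pass, at 133 and 135 against 129.6 and 129 FPKM, and was called in opposite directions after rescaling (-0.13) and quantile normalization (0.15). Of 15 tested integrins and collagen receptors 2 were at least 2-fold higher and 4 lower (median -0.20), and 2 lower without A549-labelled control 1 or 2: ITGA4 measured 3.81 and 3.44 against 0.0217 and 0.0208 FPKM, ITGA6, a laminin receptor chain, 20.2 and 20.7 against 5.26 and 5.33 FPKM, and ITGB1, the common beta chain, 70.3 and 61.9 against 202 and 234 FPKM.

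Growth factor receptors and ligands were lower in the A549-labelled controls, 11 of 23 tested at least 2-fold lower and 2 higher (median -0.78). EREG and AREG, ligands of EGFR, measured 2.37 and 2.17 against 53.0 and 55.2 FPKM and 1.60 and 1.42 against 38.4 and 38.8 FPKM. EGFR itself measured 7.93 and 6.78 against 51.5 and 53.6 FPKM, so ligands and receptor stood on the same side. IGF1R, the IGF receptor, measured 2.02 and 1.90 against 24.5 and 23.8 FPKM, and MET, the HGF receptor, 18.2 and 17.9 against 38.4 and 39.6 FPKM. EPHA2 did not pass, at 92.0 and 88.5 against 95.4 and 95.1 FPKM, but was called lower after rescaling (-0.26).

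Among 23 tested TGF-beta and BMP genes 2 were at least 2-fold higher and 7 lower (median -0.39), and 1 and 9 after rescaling. Without A549-labelled control 2 or H1299-labelled control 2 only 1 was higher. The ligands divided, TGFB1 being higher, at 123 and 126 against 47.1 and 47.1 FPKM, and TGFB2 lower, at 1.75 and 1.56 against 8.35 and 7.85 FPKM. SMAD3, the signal carrier, did not pass, at 21.9 and 23.7 against 23.8 and 24.0 FPKM. Of 18 Wnt and Notch genes 7 were at least 2-fold lower and 0 higher (median -0.51), with JAG1, a Notch ligand, at 3.10 and 3.002 against 28.7 and 27.1 FPKM and NOTCH3 at 1.61 and 1.59 against 11.4 and 11.4 FPKM. Immediate early genes, which answer growth signals within minutes, split 6 higher and 7 lower of 16 at 2-fold (median -0.24): DUSP1, a MAP kinase phosphatase, measured 20.2 and 23.5 against 422 and 413 FPKM, and EGR1 6.79 and 7.74 against 1.29 and 1.49 FPKM. DUSP6 and SPRY4, feedback genes of the ERK pathway, were higher, SPRY4 at 15.6 and 15.6 against 2.50 and 2.74 FPKM.

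**Figure D4:**
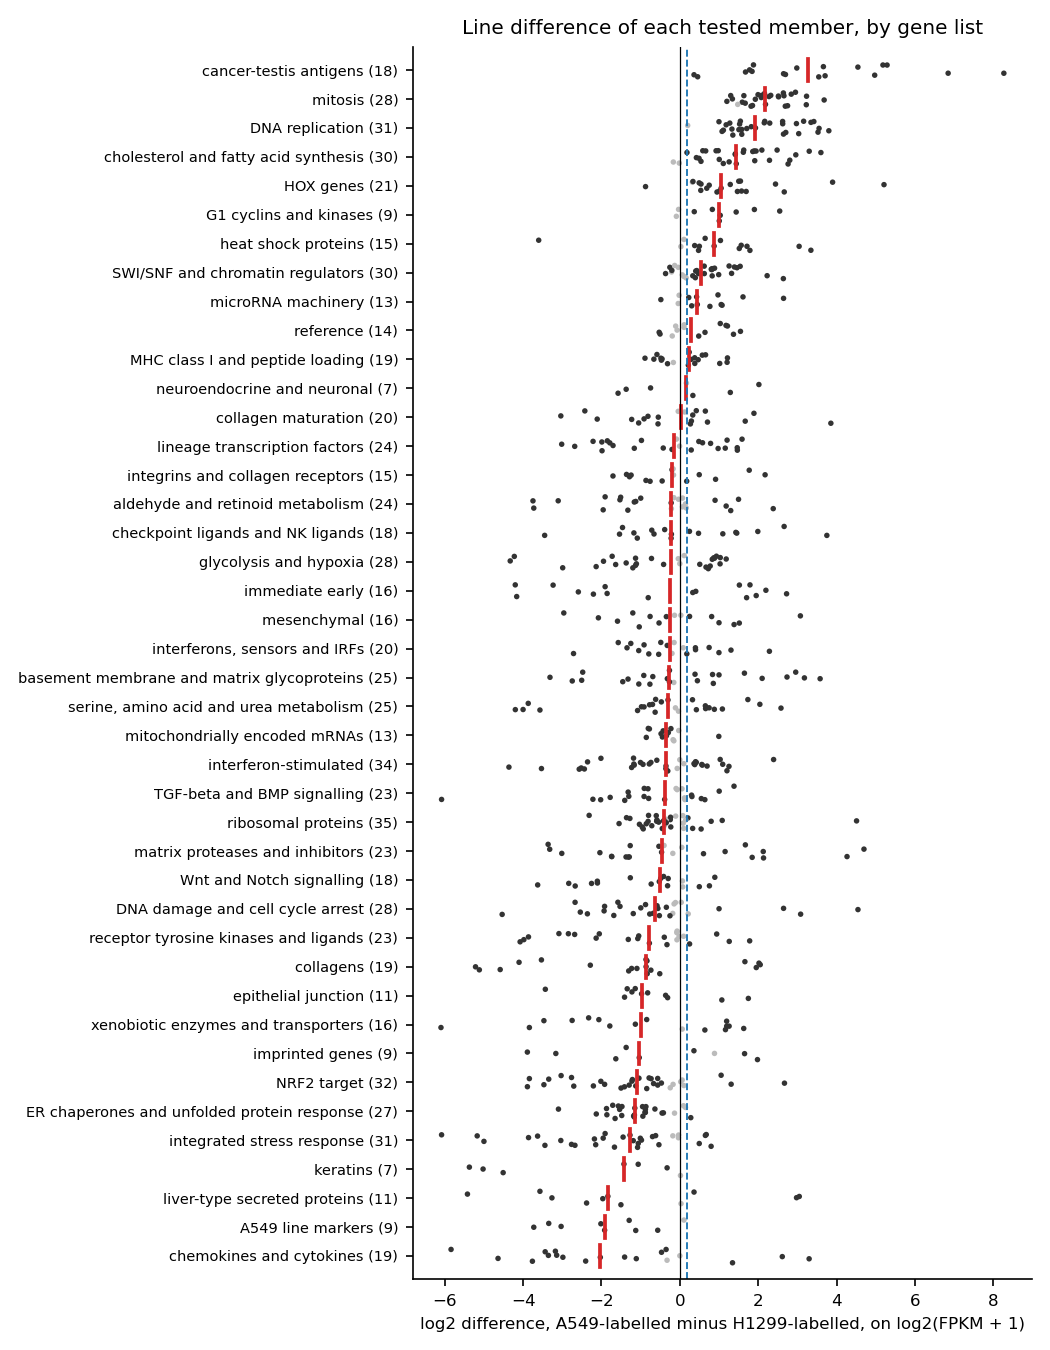
Log2 difference (A549-labelled minus H1299-labelled, on log2(FPKM + 1)) of each tested member of the gene lists with at least 5 tested members; dark points passed an adjusted p of 0.05, red bars are list medians, the blue dashed line is the median of all tested genes (0.18), and numbers are tested members. Cancer-testis antigens, mitosis and replication genes have the highest medians, and chemokines, A549 markers and liver-type secreted proteins the lowest. Members under 1 FPKM in both libraries of 1 line were tested only through the other line, which fixes their direction.

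Several hypoxia targets were lower in the A549-labelled controls. Of 28 tested glycolysis and hypoxia genes 3 were at least 2-fold higher (1 after rescaling) and 12 lower (median -0.23). CA12, a carbonic anhydrase, measured 3.10 and 2.82 against 77.8 and 79.3 FPKM, ADM, the vessel-dilating peptide adrenomedullin, 0.777 and 0.522 against 12.3 and 11.8 FPKM, and VEGFA, the vessel growth factor, 1.20 and 1.20 against 8.76 and 8.61 FPKM. These 3 are known as hypoxia targets, and the oxygen level of the cultures is not stated. PGK1, a glycolytic enzyme, did not pass, at 105 and 103 against 97.8 and 95.3 FPKM. Of 25 tested genes of amino acid and urea metabolism 4 were at least 2-fold higher and 5 lower (median -0.30): SAT1, a polyamine acetylase, measured 8.11 and 9.89 against 186 and 178 FPKM, KYNU, of tryptophan breakdown, 1.18 and 1.20 against 33.7 and 34.4 FPKM, and ASS1, argininosuccinate synthase, 1.43 and 1.65 against 36.6 and 35.5 FPKM.

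Housekeeping groups set the limits of the comparison. Of 14 reference genes 5 were at least 2-fold higher (3 after rescaling) and 0 lower (median 0.30): GAPDH measured 1216 and 1202 against 578 and 603 FPKM, HPRT1 41.2 and 41.0 against 13.98 and 12.9 FPKM, and PPIA 120.1 and 124 against 54.2 and 52.5 FPKM. ACTB, beta-actin, measured 225 and 239 against 247 and 239.7 FPKM and did not pass (log2 difference -0.07, 95% interval -0.21 to 0.07), while it passed in opposite directions after quantile normalization (0.15) and after median-of-ratios rescaling (-0.25). Mitochondrially encoded mRNAs were mostly lower in the A549-labelled controls, 9 of 13 by the test (29.7% over all tested genes). At 2-fold 0 were lower, and the list median of -0.34 became 0.15 after quantile normalization. MT-CO1, a cytochrome oxidase subunit, measured 4436 and 4585 against 8165 and 8159 FPKM. Without A549-labelled control 1 its limma adjusted p was 0.0502. MT-ND6, on the other strand of the mitochondrial genome, was the 1 called higher, and without strand information its reads cannot be told from those of its neighbours. Of 35 ribosomal protein genes 22 were called lower and 6 higher (median -0.40), beside 29.7% and 45.8% of all tested genes. At 2-fold 5 were lower and 2 higher (8 and 1 after rescaling), beside 11.2% and 18.1% of all tested genes. RPS28 stood apart, at 46.6 and 43.3 against 0.972 and 1.05 FPKM, a value made uncertain by near-identical pseudogene copies.

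The machinery through which a transfected microRNA acts was measured as well. Of 13 tested genes 4 were at least 2-fold higher in the A549-labelled controls and 0 lower (median 0.45). After rescaling 2 were, a share near that of all genes. LIN28B, which blocks let-7 maturation, measured 14.1 and 14.3 against 1.41 and 1.44 FPKM, AGO1, an Argonaute that holds microRNAs, 10.3 and 9.95 against 2.62 and 2.64 FPKM, and DICER1, which cuts their precursors, 8.80 and 8.27 against 4.64 and 4.55 FPKM. AGO4 did not pass, at 4.44 and 4.18 against 4.28 and 4.65 FPKM.

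The line difference also varied along the genome. Over 41 chromosome arms or whole chromosomes with at least 50 tested genes, the median log2 difference minus that of all genes ran from 0.61 on 19p (440 genes) to -0.76 on 10p (126 genes). Arms 4p (0.59), 6p (0.55), 6q (0.46) and 12p (0.43) followed at the top, and 20p (-0.69) and 8p (-0.63) at the bottom. On 6p 156 of 419 tested genes (37.2%) were at least 2-fold higher, beside 18.1% over all genes, and on 10p 8 of 126 (6.35%). Both arms of chromosome 6 lay high, while the arms of chromosomes 1, 8 and 12 differed from each other. Copy number was not measured, and its part in these medians was not tested.

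**Figure D5:**
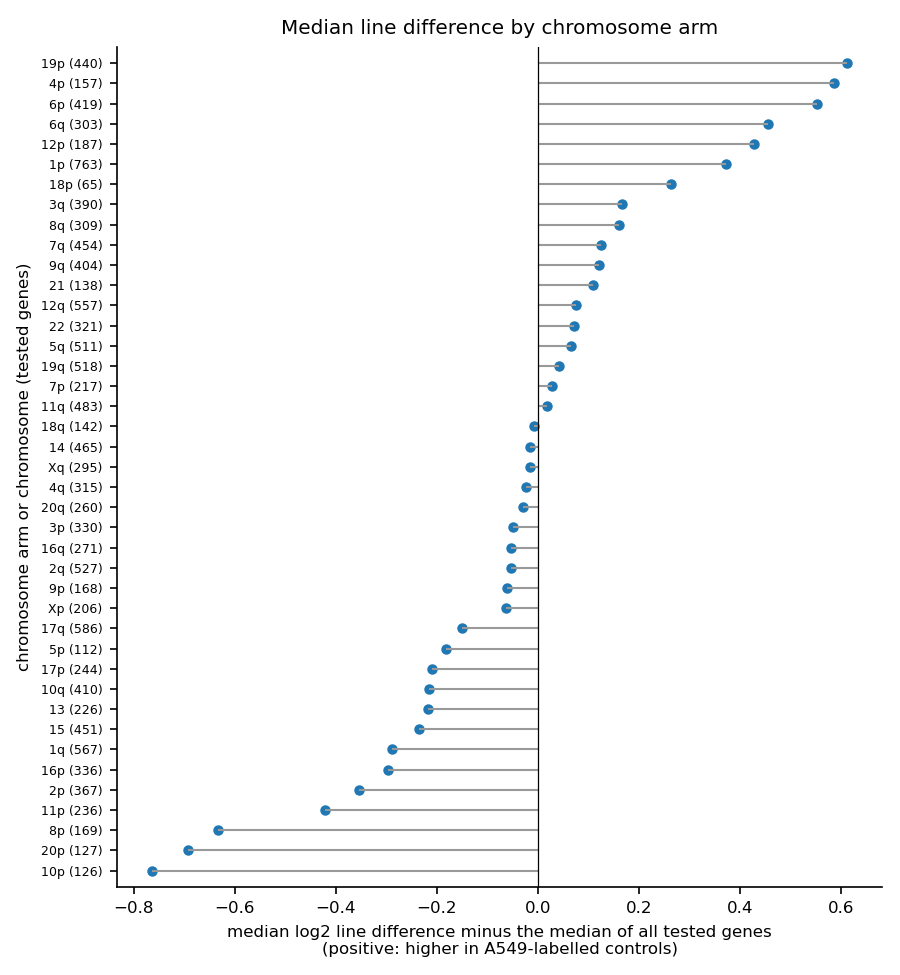
Median log2 line difference of the tested genes on each chromosome arm, minus the median of all tested genes, with the number of tested genes in brackets; positive values are higher in the A549-labelled controls. Medians run from 0.61 on 19p to -0.76 on 10p, and most arms lie within 0.3 of 0.

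The same line difference was measured a second time in the 4 miR-29a-3p libraries, which share no library with the controls. Of 9904 genes called in the controls and tested in both, 8837 (89.2%) had the same direction there and 7583 (76.6%) were also called, while 421 (4.25%) were called the opposite way. Among 3829 genes with at least 2-fold differences 3719 (97.1%) kept their direction and 3564 (93.1%) were called again. Cancer-testis antigens had a median of 3.25 in the miR-29a-3p libraries beside 3.27 in the controls, NRF2 targets -1.21 beside -1.08, and chemokines -2.35 beside -2.03. The mitosis list stood at 1.79 beside 2.17, with 27 of 27 genes in the same direction. Replication genes had 0.83 beside 1.93, with 25 of 29 in the same direction. The integrated stress response did not repeat as a list, with a median of 0.04 beside -1.27 and 14 of 19 genes in the same direction, and the ER chaperones stood at -0.40 beside -1.15 with 13 of 14. Among other lists, sterol and fatty acid synthesis stood at 0.76 beside 1.43, HOX genes at 0.57 beside 1.05, and heat shock proteins at 0.40 beside 0.88. The sign of the median changed for amino acid and urea metabolism (0.40 beside -0.30) and for checkpoint and natural killer ligands (0.32 beside -0.22). These medians were not tested against each other, and differences for those lists between the sets of libraries include each line's own response to miR-29a-3p.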

How the data were processed

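RNA-seq of total RNA from 8 libraries was deposited by the authors as 1 table of FPKM per gene, with GRCh38 and StringTie named in the submitters' processing notes. How shared reads were counted and whether strand was used are not stated. The blocks of the 2 lines were joined by gene ID, and 31105 of the 31461 IDs were found in GENCODE 29. Values from genes with several transcripts were not whole fragments, so no count test was run.

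Differences (A549-labelled minus H1299-labelled) were fitted to log2(FPKM + 1) of the 4 controls with limma 3.58.1 in R 4.3.3 (trended variance, 2 residual degrees of freedom, prior 2.29), with Benjamini-Hochberg adjustment over 13665 genes at 1 FPKM or more in at least 2 controls. The pseudocount understates differences of low genes. All adjusted p-values are limma's, and calls are those under 0.05. The fit was tested on simulated data. Folds are ratios of mean FPKM, and rescaling means median-of-ratios scaling.

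Members and gene lists were chosen with earlier results of these data known. Genes named by rule included the 12 largest and 12 smallest differences. These were drawn from called protein-coding genes at 10 FPKM or more in a line and with no overlap between the lines. Line markers, genes within 2 Mb of CDKN2A and the 10 highest on/off genes per direction were also named. So were all members of lists of up to 14. Per list, up to 5 called members at 5 FPKM or more were named, with the highest uncalled member. Other list members named were chosen after their values were seen. Alternatives changed the pseudocount, filter, scaling, variance model, replicate block and libraries. Results for some genes are not reported here.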

Additional observations from a re-analysis of the deposited data

Results flagged for a closer look

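For 5 of the A549 markers reported here the line difference in the controls differed from that in the miR-29a-3p libraries, by a limma test of the difference itself over all genes. In each the H1299-labelled level was higher in the miR-29a-3p libraries, so the log2 difference was less negative in the controls. ALDH3A1, an aldehyde dehydrogenase, changed most, by 3.62 ± 0.0877 (SE, limma adjusted p = 1.13e-05), with 37.1 and 38.9 FPKM in the H1299-labelled controls and 599.9 and 587.8 FPKM with miR-29a-3p. AKR1B10 differed by 1.42 and ALDH1A1 by 1.15. AKR1C3 differed by 0.45 and AKR1C1 by 0.31. These 5 kept their direction between the labels in both sets of libraries.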

How the results depend on the processing

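The count of called genes lay between 8974 and 9216, and at 2-fold between 3933 and 3994, when 1 library was left out, where the lone library is assumed to vary like the others. With a mean of at least 5 FPKM required, 6159 genes were tested, 4893 called and 1949 called at 2-fold, and the span between arm medians was 1.86 in place of 1.38. Rescaling lowered the share of higher genes among all calls from 60.6% to 52.9%. Same-numbered libraries did not deviate together over genes as a whole (r = -0.05 across 13665 genes). This correlation cannot decide whether the numbers pair libraries, since sampling noise weighs on it and the labels do not say. With the replicate block 10132 genes were called, 9893 of them also without it.

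Of the named genes that were called, 3 lost the call in some setting, each by leaving out 1 library. Reversals of sign were limited to named genes that had not passed the test. Under median-of-ratios scaling the log2 difference was -0.11 for CYP1B1, -0.13 for GCLM, -0.0066 for GPX2, -0.080 for IFIT2, -0.16 for KRT18, -0.070 for PGK1, -0.13 for PLAU (limma adjusted p = 0.0374) and -0.085 for SEC61A1. Under quantile normalization it was 0.15 for ACTB, -0.11 for CYP1B1, 0.030 for EPHA2, -0.15 for GCLM, -0.041 for GPX2 and -0.019 for KRT18. Some of the genes that had not passed were called under a scaling. Under median-of-ratios scaling these were ACTB (-0.25), CDK4 (-0.27), EPHA2 (-0.26), PMVK (-0.34), SHMT2 (-0.19) and SMAD3 (-0.24), besides PLAU. Under quantile normalization they were CDK4 (-0.20), PCNA (0.30), PGK1 (0.23), PLAU (0.15), PMVK (-0.28), SHMT2 (-0.20) and SMAD3 (-0.22), besides ACTB. With the replicate block CCL5, NFE2L2 and PCNA were also called (-0.33, -0.24 and 0.20). MKI67 was called without A549-labelled control 1 (0.72) or 2 (2.23). Without 1 library it ran from -0.090 to 0.0084 for AGO4, from -0.66 to 0.0077 for CCL5, from -0.0064 to 0.051 for GCLM, from -0.22 to 0.43 for GPX2, from -0.13 to 0.16 for KRT18, from -0.90 to 0.41 for NFE2L2 and from -0.41 to 0.60 for SEC61A1. The cause was not tested.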
